A study of Mus musculus with 3 samples.

Results

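Chemokine ligands are small secreted proteins that attract leukocytes by binding receptors on their surface. Their names follow the spacing of the first cysteines (CC, CXC, CX3C and C). Some are made on demand during inflammation, others keep leukocytes in place in resting tissue, and in adipose tissue several are known as signals between stromal cells, adipocytes and resident macrophages. The family was taken as every probe set whose single gene symbol is a Ccl or Cxcl gene, Cx3cl1, Xcl1, Ppbp or Pf4. This gave 41 probe sets for 36 genes, out of 19938 genes measured. Of the 36 genes, 34 had 1 probe set, Ccl19 had 5 and Ccl25 had 2, whose log2 values were averaged.

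Total RNA from mouse cells or tissue was hybridised to 3 single-colour arrays, 1 for each of 3 groups: cells named DiBA, a sample named BA, and mouse fibroblasts. Going by the series title, DiBA are brown adipocytes made by direct conversion. The BA sample has brown adipose tissue as its source, while its description speaks of cultured cells. No source used here gives strain, age, sex, conversion factors or culture time, and the treatment field is marked as not applicable. With 1 array for each group no spread between replicates exists, so no difference below has a replicate check or a p-value, and the number of arrays limits the precision. Intensities are the authors' linear values in arbitrary units. A gene counts as called where it differed by 2-fold or more on log2(intensity + 1) while the brighter array of the pair reached 69.2, the median of all probe sets. Differences between values that both lie under that level are given as values and never called.

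The labelled cell types could be checked against their markers. Ucp1, the uncoupling protein of brown fat, had an intensity of 4598 in DiBA and 4995 in BA, against 23.5 in fibroblasts. All 8 adipocyte and all 8 brown adipocyte markers were called higher on both arrays than in fibroblasts. DiBA and BA also carried markers of other cells. For the counts that follow, 8.54% of all genes were called higher in DiBA and 9.51% in BA than in fibroblasts. Of 12 macrophage markers, 9 were called higher in DiBA and 8 in BA than in fibroblasts, and the list summed to 3812 in DiBA and 3661 in BA, against 1300 in fibroblasts. Of 9 endothelial markers, 8 were called higher in DiBA and 9 in BA, with sums of 3219 in DiBA and 3844 in BA, against 594 in fibroblasts. All 8 skeletal muscle markers were called higher on both arrays, with sums of 12080 in DiBA and 13670 in BA, against 1043 in fibroblasts. Of 6 mast cell markers, 3 were called higher on each array, with sums of 652 in DiBA and 806 in BA, against 205 in fibroblasts. The part of these cells in the ligand values below was not tested, and more cells of a type cannot be told apart from more RNA for each cell.

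**Figure D1:**
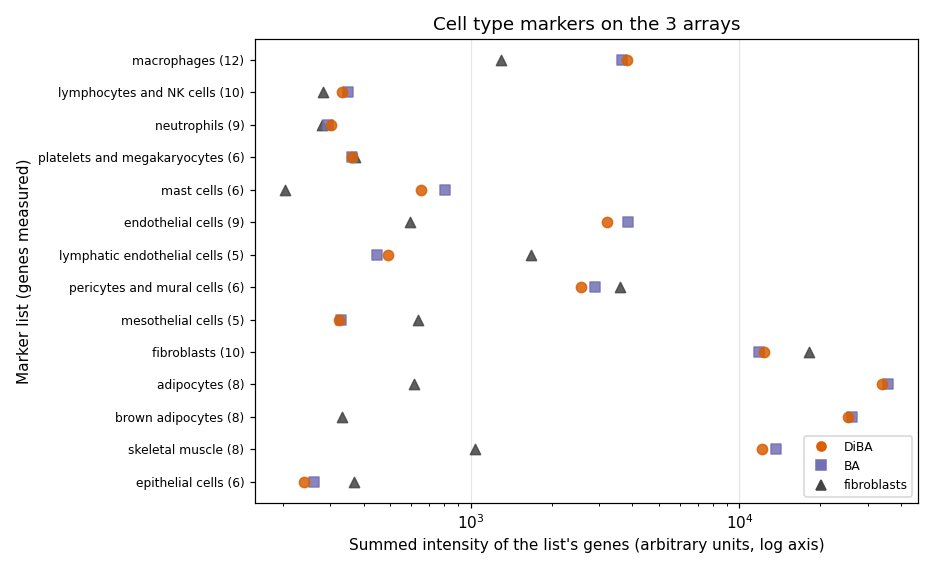
Summed intensity (log axis, arbitrary units) of 14 cell type marker lists on the DiBA (circles), BA (squares) and fibroblast (triangles) arrays, with the number of genes measured in brackets. DiBA and BA lie close together in most lists, and above fibroblasts for macrophage, mast cell, endothelial, adipocyte and skeletal muscle markers.

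In DiBA, 7 of the 36 ligand genes (19.4%) were called higher than in fibroblasts, where 8.54% of all genes were. These were Ccl6, Ccl8, Ccl9, Ccl11, Cxcl9, Cxcl13 and Pf4. The 2 called lower (5.56%) were Ccl2 and Ccl7, where 7.67% of all genes were lower. In BA, 9 ligands (25%) were called higher than in fibroblasts, against 9.51% of all genes: the same names with Ccl24 and Ppbp added. The 4 called lower in BA (11.1%) were Ccl2, Ccl7, Ccl3 and Cxcl12, against 9.59% of all genes. Both comparisons use the same fibroblast array, so a call in both is not 2 independent results. Identical values on different arrays are common in these data: 10 of the 41 ligand probe sets (24.4%) read the same on all 3 arrays, as did 33.4% of all probe sets, so a difference of 0 does not show equal expression. The median difference over the 36 ligands was 0 in each comparison, as it was over all genes. Many members were dim: 16 of the 36 (44.4%) lay under 69.2 on all 3 arrays, as did 41.3% of all genes.

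**Figure D2:**
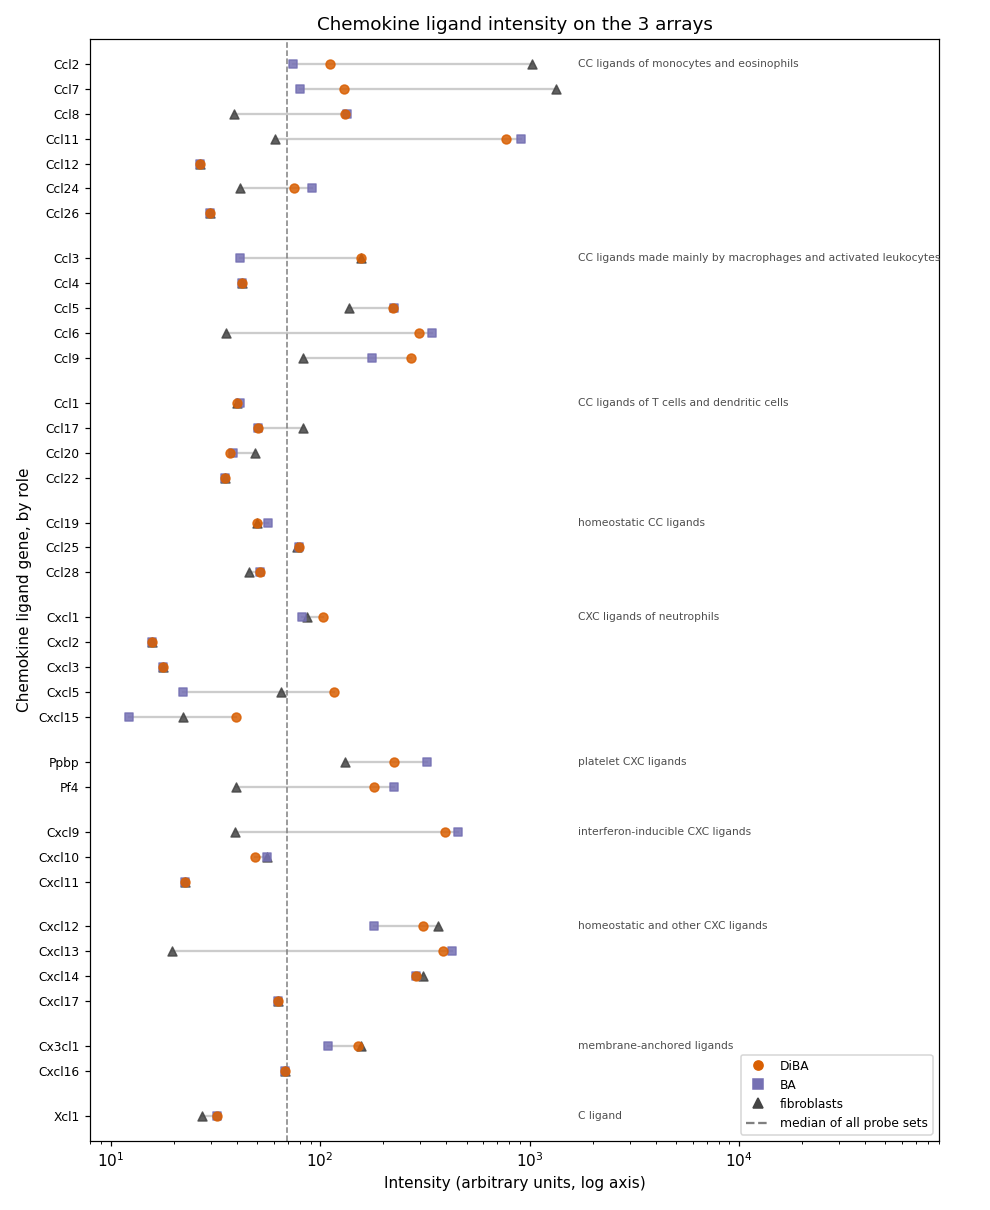
Intensity of the 36 chemokine ligand genes (log axis, arbitrary units) on the DiBA (circles), BA (squares) and fibroblast (triangles) arrays, 1 array each, grouped by role, with a dashed line at the median of all probe sets, 69.2. Ccl2 and Ccl7 lie far higher in fibroblasts, Ccl11, Ccl6, Cxcl9 and Cxcl13 far higher in DiBA and BA, and many genes have overlapping points.

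Among the CC ligands grouped here as ligands of monocytes and eosinophils, members of 1 gene cluster lay on opposite sides of fibroblasts. Ccl2, the main monocyte attractant of the family, had an intensity of 112 in DiBA and 74.5 in BA, against 1028 in fibroblasts. That is 9.13-fold lower in DiBA and 13.6-fold lower in BA. Its close relative Ccl7, which also attracts monocytes, had 131 in DiBA and 80.6 in BA, against 1332 in fibroblasts, 10.1-fold lower in DiBA and 16.4-fold lower in BA. For both genes the fibroblast array was the high one, and BA read below DiBA. The 10 fibroblast markers went both ways. On each array 3 were called higher than in fibroblasts, among them Dcn, with 5590 in DiBA and 5934 in BA, against 2655 in fibroblasts. Called lower were 4 in DiBA and 6 in BA, among them Col1a1, a collagen chain, with 854 in DiBA and 637 in BA, against 4780 in fibroblasts. Of all genes, 8.54% were called higher and 7.67% lower in DiBA, and 9.51% higher and 9.59% lower in BA. The part of fibroblast content in the Ccl2 and Ccl7 values was not tested.

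Ccl11, known as eotaxin for its action on eosinophils, ran the other way, with 768 in DiBA and 914 in BA, against 60.7 in fibroblasts. The difference was 3.64 (log2) for DiBA and 3.89 for BA. With intensities under 69.2 raised to that level, Ccl11 was still 10.96-fold higher in DiBA and 13.0-fold higher in BA. Ccl8, a further member of this group, had 131 in DiBA and 135 in BA, against 38.8 in fibroblasts. Its differences of 1.73 and 1.77 (log2) became 1.88-fold and 1.93-fold with raised low intensities, which ends both calls. Ccl24, another eosinophil attractant, had 74.7 in DiBA and 91.5 in BA, against 41.5 in fibroblasts. Its 2.18-fold difference in BA became 1.32-fold with raised low intensities, which ends the call. Ccl12 and Ccl26 had identical low values on all 3 arrays, 26.8 and 29.7.

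In the RefSeq gene order, Ccl2, Ccl7, Ccl11, Ccl12, Ccl8 and Ccl1 follow each other on mouse chromosome 11 with 0 other protein-coding genes between them. Along those 6 genes, Ccl2 and Ccl7 were lower and Ccl11 and Ccl8 higher in DiBA and BA than in fibroblasts, while Ccl12 and Ccl1 differed by at most 0.04. A second run on that chromosome holds Ccl5, Ccl9, Ccl6, Ccl3 and Ccl4.

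**Figure D3:**
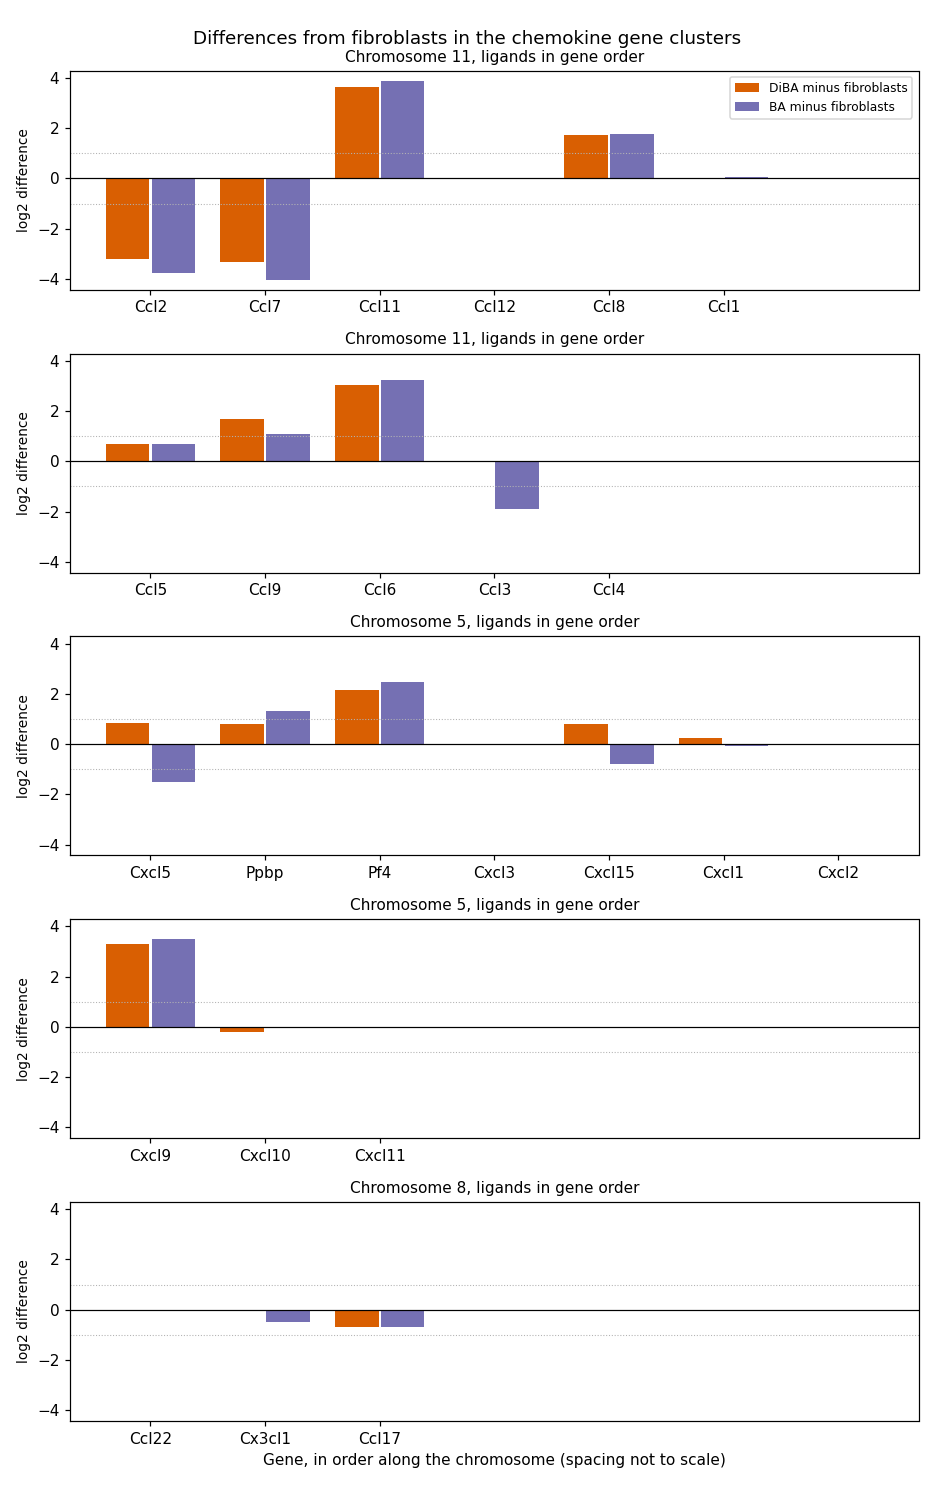
Difference from fibroblasts in log2(intensity + 1) for DiBA (left bars) and BA (right bars) in the chemokine gene clusters with 3 or more members, in gene order and not to scale, with dotted lines at 2-fold. In the first cluster Ccl2 and Ccl7 point down next to Ccl11 pointing up, in the third Cxcl5 and Cxcl15 point up in DiBA and down in BA, and genes with no visible bar differed by 0.04 or less.

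The second run holds CC ligands made mainly by macrophages and activated leukocytes. Ccl6, a mouse chemokine of myeloid cells, had 295 in DiBA and 344 in BA, against 35.6 in fibroblasts. The difference was 3.02 (log2) for DiBA and 3.24 for BA, or 4.22-fold and 4.91-fold with raised low intensities. Its neighbour Ccl9, also made by myeloid cells in mice, had 271 in DiBA and 176 in BA, against 83.0 in fibroblasts, 3.24-fold and 2.11-fold higher. A pseudocount of 16 moved the BA difference of Ccl9 to 0.96 (log2), which ends that call. Of the 7 ligands called higher in both samples, Ccl9 alone read higher in DiBA than in BA, by 1.53-fold. Ccl5, an attractant of T cells and monocytes, had 224 in DiBA and 224 in BA, against 137 in fibroblasts, under the 2-fold threshold. Ccl4 had 42.4 on all 3 arrays.

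Ccl3, a macrophage inflammatory protein, had 156 in DiBA, 41.3 in BA and 156 in fibroblasts. The DiBA and fibroblast values are identical to the last digit deposited, and BA was 3.71-fold below both. With raised low intensities that became 2.24-fold.

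The 2 neighbours Ccl6 and Ccl9 are shown here with 120 bases each of their RefSeq promoters (GRCm38.p6), since both were higher in DiBA and BA and stand side by side in the cluster. The stretch runs 5′ to 3′ on the gene's strand and ends 50 bases after the gene start. Capitals mark the longest run of bases that the promoters share, 13 bases, which stands at different distances from the 2 starts.
Ccl6 (chr11:83593038-83593157, minus strand): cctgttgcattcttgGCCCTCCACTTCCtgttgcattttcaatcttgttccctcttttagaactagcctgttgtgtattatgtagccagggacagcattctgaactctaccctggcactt
Ccl9 (chr11:83578587-83578706, minus strand): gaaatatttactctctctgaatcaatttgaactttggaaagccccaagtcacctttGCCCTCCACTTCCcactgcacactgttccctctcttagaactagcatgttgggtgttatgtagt
The shared run is a description of these windows and says nothing about which factor binds there.

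Of the 12 macrophage markers, Itgam, Fcgr1 and Aif1 were called on neither array and Cd68 in DiBA alone. The other 8 were called higher on both, as were all 8 adipocyte and all 8 skeletal muscle markers. So were 7 ligands: Ccl6, Ccl8, Ccl9, Ccl11, Cxcl9, Cxcl13 and Pf4. Not all ligands made mainly by macrophages and activated leukocytes did so: Ccl3, Ccl4 and Ccl5 were called higher on neither array. Ccl3 was called lower in BA. Mrc1, the mannose receptor of resident macrophages, had 430 in DiBA and 424 in BA, against 44.7 in fibroblasts. Csf1r, the receptor for macrophage growth factor, had 361 in DiBA and 422 in BA, against 104 in fibroblasts. Lyz2, the lysozyme gene of myeloid cells, had 1635 in DiBA and 1463 in BA, against 519 in fibroblasts. The part of macrophages in any of the ligand values was not tested.

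Of the interferon-inducible CXC ligands, which attract activated T cells, 1 of 3 was called. It was higher in DiBA, where 8.54% of all genes were, and in BA, where 9.51% were. Cxcl9 had 395 in DiBA and 453 in BA, against 39.3 in fibroblasts, differences of 3.30 and 3.49 (log2), or 5.65-fold and 6.48-fold with raised low intensities. Its neighbours Cxcl10 and Cxcl11, which act on the same receptor, stayed under 69.2 on every array. Cxcl10 had 49.1 in DiBA and 56.0 in BA, against 56.0 in fibroblasts, and Cxcl11 had 22.7 on all 3. RefSeq lists mouse Cxcl11 as a transcribed pseudogene in this assembly.

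Cxcl13, which draws B cells into lymphoid follicles, had the largest log2 difference of the 36 ligands in both comparisons with fibroblasts. It had 387 in DiBA and 428 in BA, against 19.6 in fibroblasts, 18.8-fold and 20.8-fold higher. Since its fibroblast value lies far under 69.2, these became 5.53-fold and 6.11-fold with raised low intensities, smaller than those of Ccl11. Of 10 lymphocyte and NK cell markers measured, 0 were called higher in either sample, where 8.54% of all genes were in DiBA and 9.51% in BA. Of these markers, 9 lay under 69.2 on all arrays, where 41.3% of all genes did.

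The promoters of the 2 CXC genes with the largest differences are shown with 300 bases each, 250 before and 50 after the gene start. In the Cxcl9 promoter, capitals mark a match to GAAANNGAA, the core of interferon-response elements.
Cxcl9 (chr5:92328030-92328329, minus strand): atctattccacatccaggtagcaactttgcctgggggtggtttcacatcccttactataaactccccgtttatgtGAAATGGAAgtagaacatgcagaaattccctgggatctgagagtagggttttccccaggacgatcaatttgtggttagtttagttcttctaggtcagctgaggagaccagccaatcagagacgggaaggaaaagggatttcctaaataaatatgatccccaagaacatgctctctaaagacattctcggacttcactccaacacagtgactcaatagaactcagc
In the Cxcl13 promoter, capitals mark the letters TATAAA of the so-called TATA box, before the start.
Cxcl13 (chr5:95956689-95956988, plus strand): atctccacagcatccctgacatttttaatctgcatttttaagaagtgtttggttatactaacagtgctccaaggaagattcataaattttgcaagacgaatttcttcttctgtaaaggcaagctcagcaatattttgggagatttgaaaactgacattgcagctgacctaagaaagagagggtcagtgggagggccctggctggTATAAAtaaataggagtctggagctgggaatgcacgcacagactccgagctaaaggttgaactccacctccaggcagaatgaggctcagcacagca
Searched on both strands, GAAANNGAA stood in the promoters of 6 of the 25 ligands that RefSeq's table holds (Ccl1, Ccl3, Ccl19, Cxcl9, Cxcl10 and Cxcl14), against 8.56% of all promoters. TATAAA stood in 10 of the 25, against 13.6% of all promoters. TTCNNNGAA, the interferon gamma-activated sequence, stood in 2, Ccl17 and Cxcl14, against 8.30%. A ligand was counted if any of its promoters held the letters, while the percentages are over 32851 single promoters, so the 2 measures are not alike. The motifs were picked with the values known.

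Among the CXC ligands of neutrophils, Cxcl5 and Cxcl15 differed more between DiBA and BA than either sample did from fibroblasts. Cxcl5 had 116 in DiBA and 22.2 in BA, against 64.7 in fibroblasts. It was 5.04-fold higher in DiBA than in BA, which became 1.67-fold when low intensities were raised and was then not called. Cxcl15, known as lungkine, had 39.5 in DiBA and 12.2 in BA, against 22.0 in fibroblasts, all under 69.2, so it was not called. Cxcl1, the mouse neutrophil attractant also called KC, had 103 in DiBA and 82.2 in BA, against 86.9 in fibroblasts. Cxcl2 and Cxcl3 were at 15.7 and 17.7 on all arrays. Of 9 neutrophil markers, 0 reached 69.2 on any array.

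A kappaB-type sequence, searched as GGANNTTCC on both strands, stood in the promoters of 6 of the 25 ligands (Ccl1, Ccl12, Cxcl1, Cxcl2, Cxcl3 and Cxcl10), against 4.26% of all promoters. Here too ligands were counted by gene and the percentage by single promoter. The factor NF-kappaB is known to bind such sequences at inflammatory genes. Of these 6 ligands, 0 were called in any comparison, where 9 of all 25 ligands with a promoter were. Ccl1, Ccl12, Cxcl2, Cxcl3 and Cxcl10 lay under the median of all probe sets on every array, so the rule could not call them. Of the 6, Cxcl1 alone could have been called. The motif was also picked with the values known, and 6 genes are few. The 0 therefore says nothing about a link between the motif and the calls. For the 4 CXC genes among the 6 ligands a window of 60 bases is shown with the match in capitals.
Cxcl1 (chr5:90891150-90891209, plus strand): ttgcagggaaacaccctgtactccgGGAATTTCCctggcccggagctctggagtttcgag
Cxcl2 (chr5:90903778-90903837, plus strand): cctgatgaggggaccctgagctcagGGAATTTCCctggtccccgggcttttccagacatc
Cxcl3 (chr5:90786004-90786063, plus strand): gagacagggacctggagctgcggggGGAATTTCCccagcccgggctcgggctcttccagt
Cxcl10 (chr5:92349013-92349072, minus strand): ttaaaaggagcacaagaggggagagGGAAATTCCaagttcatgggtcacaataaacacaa
Of the 14 ligands called in a comparison, 9 have a promoter in the table, and a missing match says only that these letters are not in this window.

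Pf4 and Ppbp encode chemokines stored in platelet granules, and some macrophages are also known to make Pf4. Pf4 had 181 in DiBA and 224 in BA, against 39.5 in fibroblasts, 4.50-fold and 5.56-fold higher, or 2.6-fold and 3.21-fold with raised low intensities. Ppbp had 226 in DiBA and 325 in BA, against 131 in fibroblasts, with differences of 0.78 and 1.31 (log2), so that the BA difference alone was called. Of 6 platelet and megakaryocyte markers measured, 0 were called in any comparison. Of all genes, 8.54% were called higher in DiBA and 9.51% in BA than in fibroblasts. The summed intensity of the 6 markers was 364 in DiBA and 363 in BA, against 373 in fibroblasts. Itga2b, the platelet integrin chain, had 91.1 in DiBA and 93.9 in BA, against 91.1 in fibroblasts.

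Of the remaining ligands, Cxcl12 in BA was the only one called against fibroblasts. Cxcl12, which holds blood progenitors in bone marrow, had 311 in DiBA and 181 in BA, against 366 in fibroblasts. The BA difference of -1.01 (log2) was just past 2-fold, and quantile normalization moved it to -0.96, which ends the call. Cxcl14 had 285 in DiBA and 285 in BA, against 310 in fibroblasts. Cx3cl1, the membrane-bound fractalkine, had 152 in DiBA and 110 in BA, against 156 in fibroblasts, and Cxcl16, also membrane-anchored, had 67.7 on all 3 arrays. Of the 4 ligands of T cells and dendritic cells (Ccl1, Ccl17, Ccl20 and Ccl22) 0 were called. Against fibroblasts, 8.54% of all genes were called higher and 7.67% lower in DiBA, and 9.51% and 9.59% in BA. Ccl17 had 50.8 in DiBA and 50.8 in BA, against 82.7 in fibroblasts, and the other three lay under 69.2 throughout. Ccl20, which attracts cells bearing Ccr6, had 37.0 in DiBA and 38.2 in BA, against 48.7 in fibroblasts, while Ccl1 lay between 40.3 and 41.4 and Ccl22 at 35.1. Of the homeostatic CC ligands, Ccl19, which guides T cells and dendritic cells into lymph nodes, had 50.2 in DiBA and 56.7 in BA, against 50.2 in fibroblasts. Ccl25, a thymus and gut chemokine, had 79.5 in DiBA and 79.5 in BA, against 77.6 in fibroblasts, and Ccl28, of mucosal epithelia, had 51.5 in DiBA and 51.5 in BA, against 45.6 in fibroblasts. Xcl1 had 32.0 in DiBA and 32.0 in BA, against 27.4 in fibroblasts, and Cxcl17 had 62.8 on all 3 arrays.

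Set directly against BA, DiBA had 2 ligands called higher (5.56%), Cxcl5 and Ccl3, where 0.973% of all genes were. DiBA had 0 ligands called lower, where 0.0% of all genes were. Of all 19938 genes, 194 were called higher and 0 lower in DiBA than in BA, so the 0 is not particular to the ligands. Why no gene was called lower was not tested. Cxcl15 differed by 1.61 (log2) under the level filter. Short of 2-fold, Cxcl12 was 1.72-fold, Ccl7 1.62-fold, Ccl9 1.53-fold and Ccl2 1.49-fold higher in DiBA. Ccl6, Ccl11, Cxcl9, Cxcl13 and Pf4, called higher in both samples than in fibroblasts, all read lower in DiBA than in BA, by log2 differences of -0.22, -0.25, -0.20, -0.15 and -0.31. The lowest member was Ppbp at -0.53.

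**Figure D4:**
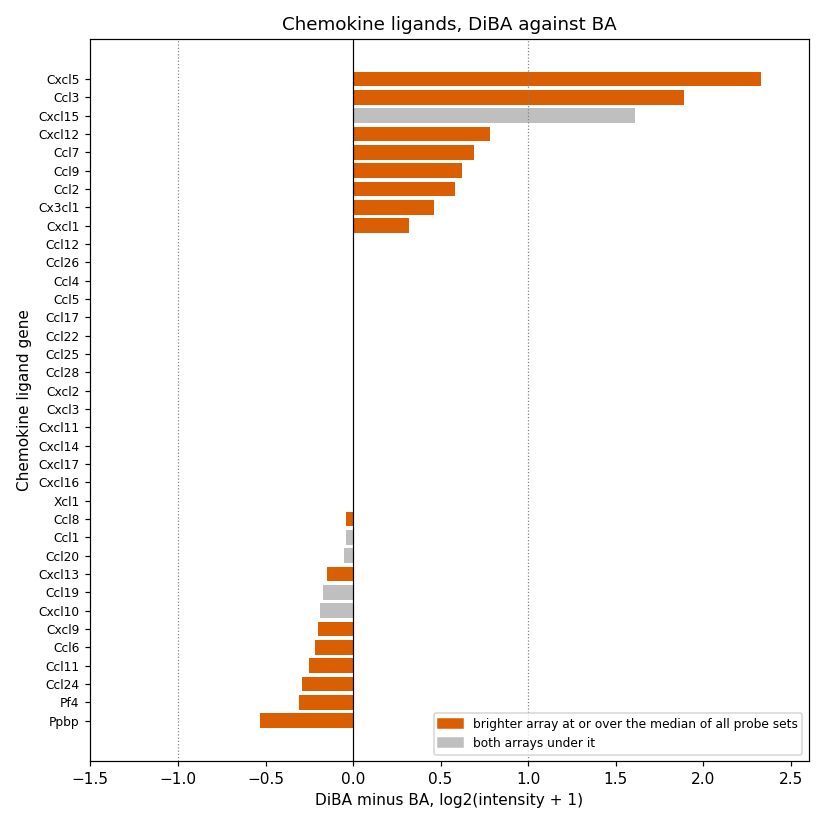
Difference between DiBA and BA in log2(intensity + 1) for the 36 chemokine ligand genes, 1 array each, with dotted lines at 2-fold and grey bars where both arrays lay under 69.2. Cxcl5, Ccl3 and Cxcl15 exceed 2-fold on the DiBA side, the lowest bar is Ppbp at -0.53, and 14 genes had identical values.

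The receptors of these ligands were mostly dim. Of 23 receptor genes measured, 19 lay under 69.2 on all 3 arrays, where 41.3% of all genes did. In DiBA and in BA, 1 was called higher than in fibroblasts, where 8.54% and 9.51% of all genes were. On both arrays 0 were called lower, against 7.67% and 9.59% of all genes, and between DiBA and BA 0 were called. The called gene was Ccr2, the receptor for Ccl2 and Ccl7, with 73.4 in DiBA and 73.4 in BA, against 24.8 in fibroblasts. Its difference of 1.52 (log2) runs opposite to those of the ligands Ccl2 and Ccl7, and it became 0.08 with raised low intensities. The median difference over the 23 receptors was 0 in each comparison.

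Of 30 measured genes that switch chemokines on or off, 0 were called between DiBA and fibroblasts, where 8.54% of all genes were called higher and 7.67% lower in DiBA. The inducing cytokine genes Il1b, Tnf, Il6 and Ifng, named after their values were seen, stayed under 69.2 on every array. Il1rn, which encodes the antagonist of the interleukin-1 receptor, had 231 in DiBA and 81.3 in BA, against 241 in fibroblasts, and was the 1 gene of the list called lower in BA and the 1 called higher in DiBA than in BA.

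Of 17 measured genes that trim, shed or hold chemokines, 3 were called higher and 5 lower in DiBA than in fibroblasts, where 8.54% of all genes were higher and 7.67% lower. In BA, 1 was called higher and 7 lower, where 9.51% of all genes were higher and 9.59% lower. The list's median was -0.60 in DiBA and -0.94 in BA, and the median over all genes was 0 in both. Mmp9, a gelatinase that cleaves several CXC ligands, had 1351 in DiBA and 160 in BA, against 93.7 in fibroblasts, a difference of 3.84 (log2) for DiBA and 0.76 for BA. Mmp12, the macrophage elastase, had 168 in DiBA and 46.0 in BA, against 49.3 in fibroblasts. Both were called higher in DiBA than in BA, by 3.07 and 1.84. Dpp4, a peptidase that trims the ends of chemokines and was named after its values were seen, had 121 in DiBA and 154 in BA, against 59.1 in fibroblasts. Its difference of 1.02 (log2) in DiBA became 0.80 with raised low intensities, which ends that call, and the 1.37 in BA became 1.14. Mmp14, which cuts Cxcl12 and Ccl7, had 224 in DiBA and 180.5 in BA, against 1139 in fibroblasts. Tnfaip6, a secreted chemokine-binding protein, had 57.4 in DiBA and 41.6 in BA, against 241 in fibroblasts. The other genes called lower in DiBA, named after their values were seen, were Adam10 at -1.15 (log2), which sheds Cx3cl1 and Cxcl16, and Sdc1 at -1.11 and Hs2st1 at -1.20, which act in heparan sulfate, the sugar chain that holds chemokines at cell surfaces.

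Among 15 other leukocyte attractants and growth factors measured, 1 was called higher and 3 lower in DiBA than in fibroblasts, against 8.54% and 7.67% of all genes. In BA 1 was called higher and 4 lower, against 9.51% and 9.59% of all genes. The higher one was Rarres2, which encodes the adipose chemoattractant chemerin, with 788 in DiBA and 883 in BA, against 63.5 in fibroblasts. Csf1, the macrophage growth factor, had 256 in DiBA and 174 in BA, against 1144 in fibroblasts. Mif, the macrophage migration inhibitory factor, named after its values were seen, had 1086 in DiBA and 917 in BA, against 2815 in fibroblasts. Lgals3, which encodes galectin 3, had 583 in DiBA and 171 in BA, against 829 in fibroblasts, and was called lower in BA alone and higher in DiBA than in BA. Tslp, an epithelial cytokine gene, had 44.2 in DiBA and 26.4 in BA, against 140.4 in fibroblasts. Its differences of -1.64 (log2) in DiBA and -2.37 in BA both became -1.01 with raised low intensities.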

How the data were processed

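The authors deposited 1 linear intensity per probe set and array. The submitters' processing notes name Affymetrix Expression Console. For its version, background correction, summarization and normalization, no source used here gives an entry. The labels' protocols name ISOGENII for RNA extraction and a whole-transcript terminal labelling kit. The array medians were 71.5 for DiBA, 67.7 for BA and 67.8 for fibroblasts, so values were used as scaled.

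Of 28943 probe sets, 21789 had 1 symbol in the platform's table, 1621 had several and 5533 were not listed. Probe sets of one gene were averaged as log2(intensity + 1). A call needed a 2-fold difference with the brighter array at 69.2 or more. The calling step was tried on simulated arrays with added noise and changes placed only on genes well above 69.2. That trial covered neither changes in dim genes nor identical values, and it says nothing about the spread between replicates. Neither a test nor an interval was computed, since each group holds 1 array. RefSeq tables of GRCm38.p6 gave gene order and promoters, and 25 of 36 ligands matched a promoter. Python 3.11.15 and pandas 2.3.3 were used. Every called ligand was to be named, with up to 4 called genes of the largest differences from each pathway list and up to 3 of the brightest from each marker list; others are marked where they stand. Members, lists and motifs were chosen with earlier results of these data known. Alternatives covered scaling, filters, pseudocount, probe set choice and fold threshold.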

Additional observations from a re-analysis of the deposited data

Results flagged for a closer look

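Cxcl5 and Cxcl15 lay above fibroblasts in DiBA and below them in BA, with differences between DiBA and BA of 2.33 and 1.61 (log2). With 1 array each this difference was not tested. Cxcl15 was under 69.2 on all 3 arrays, and for Cxcl5 the BA and fibroblast values were.

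Probe sets with several gene symbols were not counted among the members. Of these, 4 list near-identical copies of Ccl21, the lymphoid homing chemokine, and hold the same value on each array. They read 195.38 in DiBA and 242.97 in BA, against 49.45 in fibroblasts, 3.89-fold and 4.84-fold higher. Which copy gives this signal was not tested. Another 3 probe sets list copies of Ccl27 and differed from fibroblasts by at most 0.10 (log2).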

How the results depend on the processing

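Of 10 alternatives, centring the arrays, quantile normalization, no filter, the brightest probe set and a pseudocount of 16 kept every count of called ligands within 1.5 times. A 1.5-fold threshold gave 11 ligands higher in DiBA than in fibroblasts and 5 higher in DiBA than in BA. The stricter level filter (75th percentile) and the 4-fold threshold each gave 5 ligands higher in BA than in fibroblasts, and the 4-fold threshold gave 2 lower. Between DiBA and BA, the 75th percentile filter gave 0 higher, and 1 was higher with a filter on the mean over arrays, with low intensities raised to the median, and at 4-fold. Ccl2, Ccl7, Ccl6, Ccl11, Cxcl9 and Cxcl13 were called under every alternative in both comparisons with fibroblasts, and no other ligand was in either. In 240 recomputed differences of called ligands, 0 had the opposite direction. That count says little, since filters, fold thresholds and the choice of probe set left each of these differences as it was. Raised low intensities and a larger pseudocount can shrink a difference but not reverse it. Centring and quantile normalization moved each by under 0.1 (log2). The position of DiBA between the other samples, given below, had a median of 93.5% on the log2 scale for the 9 higher ligands, against 84.2% on the linear scale, and both the measure and its scales were chosen after seeing the data. No paired analysis was possible because each group holds 1 array.

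Many values are identical between arrays: 10 of 41 ligand probe sets on all 3, 17 on DiBA and fibroblasts and 15 on DiBA and BA, where 33.4%, 39.5% and 47.3% of all probe sets are. A difference of 0 in such a gene is a property of the deposited values and does not show equal expression.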

Other observations

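The position of DiBA between fibroblasts (0%) and BA (100%) is a measure added after seeing the data, here on the linear scale. Of the 9 ligands called higher in BA than in fibroblasts, the median position was 84.2%, from 48.7% for Ppbp to 201% for Ccl9. Ccl6 lay at 84.2%, Ccl11 at 82.9%, Cxcl9 at 86.0%, Cxcl13 at 89.9% and Pf4 at 76.8%. Over all 1897 genes called higher in BA the median was 83.7%. The marker genes called higher in BA had medians of 93.2% for 8 macrophage genes, 79.0% for 9 endothelial genes, 74.99% for 3 mast cell genes, 86.3% for 8 skeletal muscle genes and 92.7% for 8 adipocyte genes. Genes picked for a high BA value favour positions under 100%, and a shared fibroblast array enters every value.

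Among the 4 ligands called lower in BA, Ccl2 and Ccl7 lay at 96.1% and 96.0%, Cxcl12 at 29.4% and Ccl3 at 0%, since its DiBA and fibroblast values are the same. The median over the 1913 genes called lower in BA was 89.8%.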
